A study of Arabidopsis thaliana with 16 samples.

Results

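AT2G04400 encodes indole-3-glycerol phosphate synthase, which forms the indole ring system in the plastid chain that makes tryptophan. It was 1 of 10 tryptophan and camalexin synthesis loci listed by their place in the pathway, with earlier results of these data known. It was the only 1 of them that the annotation used ties to a probe set. That probe set is 263807_at, and the annotation ties 13286 loci in all to a probe set of their own. The other 9 loci were not analysed here. In the tryptophan chain they were AT5G05730 (ASA1) and AT1G25220 (ASB1), the subunits of anthranilate synthase, then AT5G17990 (PAT1, anthranilate phosphoribosyltransferase), and AT3G54640 (TSA1) and AT5G54810 (TSB1), the subunits of tryptophan synthase. Beyond tryptophan they were AT4G39950 (CYP79B2) and AT2G22330 (CYP79B3), which turn tryptophan into indole-3-acetaldoxime, AT2G30770 (CYP71A13), which acts on that aldoxime, and AT3G26830 (PAD3), which completes camalexin. The results therefore describe 1 step of tryptophan synthesis and the neighbouring genes that could be measured, and hold no value for camalexin synthesis itself.

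Tryptophan is made from chorismate, the end product of the shikimate pathway, which also feeds phenylalanine, tyrosine and salicylic acid. In leaves of Arabidopsis thaliana, tryptophan is the precursor of protein, of indole glucosinolates, and of camalexin, the antimicrobial indole compound for which this plant's pathogen response is known. Genes of the tryptophan chain are known to be induced together with camalexin synthesis when leaves meet bacteria.

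Transcripts were measured with 1-colour ATH1 arrays in leaf tissue of plants 4 weeks old, in 8 groups of 2 arrays each. There were 4 genotypes, Col-0 as the wild type and atgsnor1-1, atgsnor1-3 and sid2 as mutants, each untreated or 6 h after avrB, an effector gene of Pseudomonas syringae whose product Col-0 recognises through the resistance protein RPM1. As background, GSNOR1 encodes the reductase of S-nitrosoglutathione, a store of nitric oxide; atgsnor1-1 is known for raised and atgsnor1-3 for lost activity of this enzyme. The mutant sid2 lacks the isochorismate synthase that uses chorismate for pathogen-induced salicylic acid. The labels name no lesion, no bacterial strain and no mock treatment, and give a time for the treated leaves only, so avrB cannot be told apart from inoculation as such. Nothing in them ties the 2 arrays of a group to separate plants, and the p-values measure only the spread between these arrays, which may be technical.

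All 16 arrays had been scaled to a common trimmed mean, and their median signals lay between 33.1 and 40.9 units. Arrays of 1 group correlated with r of 0.884 to 0.934 over log2 signals. For 5 arrays the closest array belonged to another group, but for 0 arrays did it belong to the other treatment state. Of 20 marker genes for leaf and other tissues, 3 could be read. The signal of RCA, the Rubisco activase of photosynthetic leaf cells, was 5226 to 7364 units on the untreated arrays (median 6277) and 2873 to 4298 after avrB (median 3292). That of the root marker PYK10 was 3.28 to 27.2 units over all arrays, and that of the guard cell marker FAMA 29.2 to 71.9 units. RCA moved with the treatment that also separates every avrB result below, and its part in those results was not tested. In whole leaves, fewer cells of a type and less RNA per cell cannot be told apart. The genes targeted in the mutants were not analysed here, and no label could be checked by its own gene.

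After avrB, the AT2G04400 signal rose in all 4 genotypes, by 2.45-fold in Col-0 and by 3.62-fold to 4.96-fold in the mutants. In untreated Col-0 the signal was 349 units on the first array and 403 on the second. After avrB it was 888 and 946 units in Col-0. The treated wild-type arrays lay above both untreated ones, with a gap wider than the spread within either pair. In atgsnor1-1 the signal went from 352 and 269 units untreated to 1592 and 1466 after avrB, the 2 highest values of the series. In atgsnor1-3 it went from 222 and 329 to 926 and 1161 units. In sid2 it went from 261 and 255 to 1007 and 868 units. Every one of the 8 treated arrays stood above every one of the 8 untreated arrays, so the states did not overlap in any genotype. For this gene and those below, the share of all probe sets that separate in this way was not counted.

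**Figure D1:**
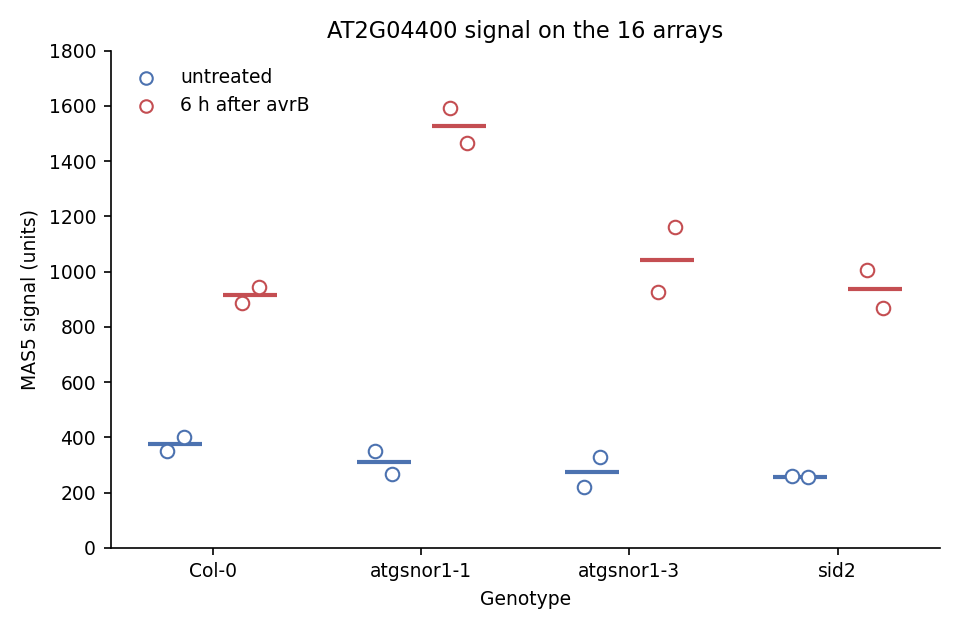
MAS5 signal of AT2G04400 (vertical axis, linear, in units) on each of the 16 arrays by genotype; open circles are single arrays and bars the mean of the 2 arrays of a group. All 8 arrays after avrB lie at 868 units or more and all 8 untreated arrays at 403 units or less, and atgsnor1-1 after avrB stands highest.

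The responses were tested with limma on log2 signals, in 1 fit over the 13648 probe sets left after the dimmest 40% were set aside. A probe set was called where the Benjamini-Hochberg adjusted p was under 0.05 and the log2 difference at least 1 in size. AT2G04400 was called higher in each genotype. In Col-0 the log2 difference was 1.29 ± 0.19 (SE), which is 2.45-fold with a 95% interval of 1.85 to 3.24 (limma adjusted p = 0.000145). Of all probe sets tested, 7.31% were called higher and 5.07% lower in that comparison. In atgsnor1-1 the difference was 2.31 ± 0.19, or 4.96-fold (3.75 to 6.57, limma adjusted p = 2.86e-07), where 8.58% of all probe sets were called higher and 10.5% lower. In atgsnor1-3 it was 1.94 ± 0.19, or 3.84-fold (2.90 to 5.08, limma adjusted p = 3.79e-07), against 15.0% called higher and 20.0% lower. In sid2 it was 1.86 ± 0.19, or 3.62-fold (2.74 to 4.8, limma adjusted p = 1.3e-06), against 10.9% called higher and 11.6% lower. Calls in either direction were thus most common in atgsnor1-3 and least common in Col-0.

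Among all probe sets tested, the rise of AT2G04400 in Col-0 was exceeded by 786, or 5.76%. In atgsnor1-1 it was exceeded by 330, or 2.42%. The shares were 7.09% in atgsnor1-3 and 5.47% in sid2. The median log2 difference over all probe sets tested was between -0.16 and -0.08 in the 4 responses.

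In order of their means, the 8 groups fell into a low and a high block. Untreated sid2 had the lowest mean, 258 ± 4.74 units (SD, n = 2). Untreated atgsnor1-3 followed with 275 ± 75.2 units and untreated atgsnor1-1 with 311 ± 58.9. Untreated Col-0 was the highest of the low block at 376 ± 37.9 units. Each of these neighbours overlapped the next in its arrays. The high block opened with Col-0 after avrB at 917 ± 41.0 units, then sid2 at 938 ± 98.2 and atgsnor1-3 at 1044 ± 166, and these neighbours overlapped as well. Only atgsnor1-1 after avrB, at 1529 ± 89.3 units, stood clear of the group next to it.

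Before treatment, AT2G04400 was not called in any mutant. Against untreated Col-0, the log2 difference was -0.28 in atgsnor1-1 (95% interval -0.69 to 0.12, limma adjusted p = 0.74), in a comparison in which 0.147% of all probe sets were called. It was -0.47 in atgsnor1-3 (-0.88 to -0.07, limma adjusted p = 0.104), with 8.79% of all probe sets called. It was -0.54 in sid2 (-0.94 to -0.13, limma adjusted p = 0.0871), with 5.92% called. The 3 comparisons share the Col-0 arrays, so their common sign is not 3 separate observations.

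After avrB, the mutants again gave no call against Col-0, whose arrays these comparisons share too. The value was 0.74 in atgsnor1-1 (0.33 to 1.14, limma adjusted p = 0.121), where 0.161% of all probe sets were called. Both atgsnor1-1 arrays lay above both Col-0 arrays, at 1466 units or more against 946 or less, though the difference was not called. The value was 0.18 in atgsnor1-3 (-0.23 to 0.58, limma adjusted p = 0.548), where 13.1% were called. It was 0.03 in sid2 (-0.38 to 0.43, limma adjusted p = 0.973), where 1.5% were called.

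Whether a mutant responded differently from Col-0 was tested as a contrast of its own, and no such contrast was called. It was 1.02 ± 0.27 (SE) on the log2 scale for atgsnor1-1, with an interval of 0.45 to 1.59 and a limma adjusted p of 0.108, in a comparison that called 0.542% of all probe sets. For atgsnor1-3 it was 0.65 (0.08 to 1.22, limma adjusted p = 0.108), with 15.1% called. For sid2 it was 0.57 (-0.01 to 1.14, limma adjusted p = 0.386), with 2.60% called. In each mutant the untreated mean was lower and the treated mean higher than in Col-0, and none of these single differences was called. The treated difference of sid2 changed sign when certain single arrays were left out. Without the first untreated atgsnor1-3 array, the untreated difference of that mutant was -0.19 in place of -0.47. Over all runs with 1 array left out, this difference ranged from -0.75 to -0.19. The difference in response between atgsnor1-3 and Col-0 ranged from 0.37 to 0.93 in such runs.

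The 2 alleles of GSNOR1 were also compared with each other, which uses no Col-0 array. Untreated, atgsnor1-3 differed from atgsnor1-1 by -0.19 on the log2 scale (-0.59 to 0.22, limma adjusted p = 0.577), where 6.25% of all probe sets were called. After avrB the difference was -0.56 (-0.96 to -0.15, limma adjusted p = 0.0398), where 14.4% were called. The second value is below the size needed for a call, and its adjusted p crossed 0.05 under other settings (limma adjusted p of 0.0206 to 0.0839) and with 1 array left out (0.0426 to 0.257). The arrays of the alleles did not overlap, with 926 and 1161 units in atgsnor1-3 against 1592 and 1466 in atgsnor1-1. With 2 arrays in each group, this describes the arrays and does not stand in for a call.

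**Figure D2:**
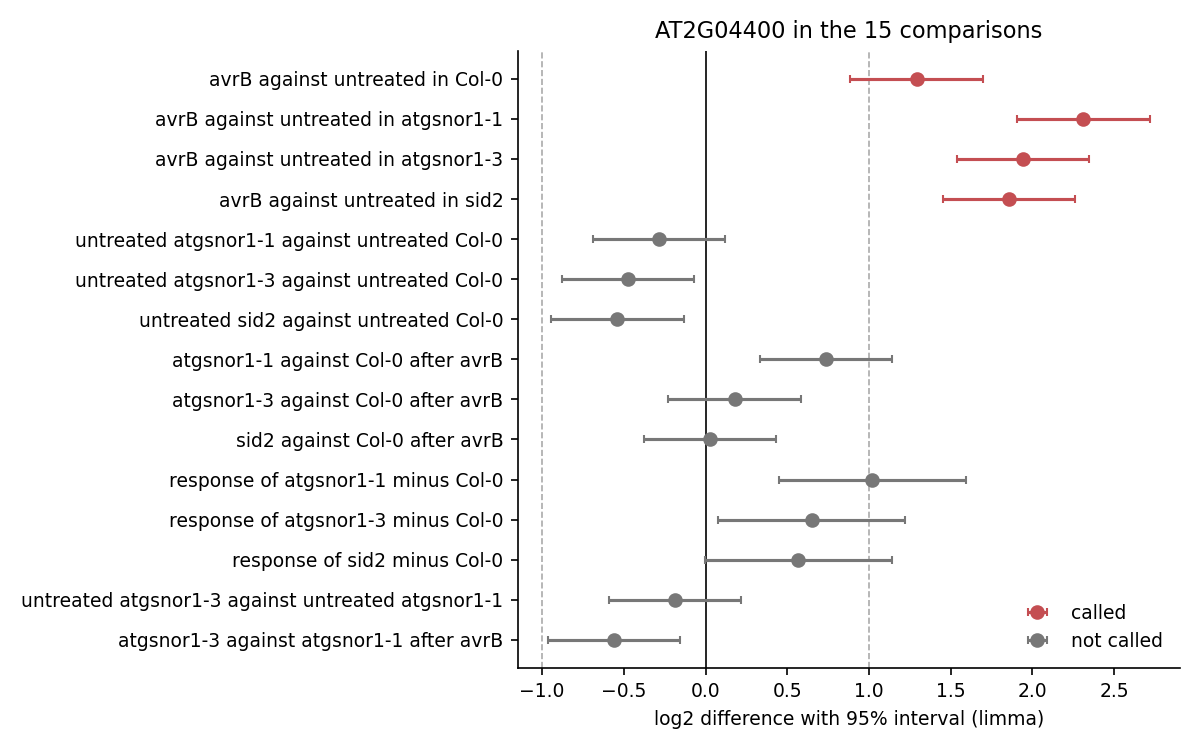
log2 difference of AT2G04400 (horizontal axis) with its 95% interval from limma in the 15 comparisons, red where called and grey where not; dashed lines mark a log2 difference of 1 in either direction. The 4 avrB responses, from 1.29 to 2.31, are called, and the other 11 comparisons are not.

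The neighbouring genes of the pathway came from 6 lists with 59 loci, of which 8 loci could be read, on 7 probe sets. Of these 7, avrB was followed by 2 called higher and 0 lower in Col-0, and by 3 higher and 1 lower in each of the 3 mutants. Of the 3 called higher in each mutant, 1 was AT1G26380, which passed the filter only through its treated arrays. In the direct tests of a mutant response against that of Col-0, 0 of the 7 were called for atgsnor1-1 and for sid2. For atgsnor1-3, 1 was called, AT1G26380. These contrasts called 0.542%, 2.60% and 15.1% of all probe sets for atgsnor1-1, sid2 and atgsnor1-3. Over all probe sets tested, the shares called higher and lower were 7.31% and 5.07% in Col-0, 8.58% and 10.5% in atgsnor1-1, 15.0% and 20.0% in atgsnor1-3, and 10.9% and 11.6% in sid2. The median log2 difference over the 7 was 0.63 in Col-0, 0.69 in atgsnor1-1, 0.52 in atgsnor1-3 and 0.73 in sid2. With 7 probe sets these counts describe the genes named next and no list as a whole.

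The list of the shikimate pathway and of chorismate use held 4 readable loci of 13, all of them upstream of chorismate and on 3 probe sets, and 2 of the 3 were called higher in every genotype. AT1G22410 encodes 3-deoxy-D-arabino-heptulosonate 7-phosphate synthase, the entry enzyme of the pathway. Its signal in Col-0 was 1109 and 866 units untreated and 3328 and 3233 after avrB. Untreated and treated arrays did not overlap in any genotype, since over all groups the untreated arrays reached 1109 units at most and the treated ones began at 2191. The log2 difference was 1.74 ± 0.16 (SE) in Col-0 (limma adjusted p = 1.56e-06), 1.90 and 1.88 in the alleles atgsnor1-1 and atgsnor1-3, and 2.38 in sid2 (limma adjusted p = 1.01e-08). Untreated levels were lower than in Col-0 by -0.63 in atgsnor1-3 (limma adjusted p = 0.0105) and by -0.81 in sid2 (limma adjusted p = 0.00267), both short of the size for a call. AT2G04400 had values of the same sign in these 2 comparisons, -0.47 and -0.54, neither called. The other probe sets of this list did not: AT5G66120 gave -0.09 and 0.01, and that of AT1G48860 and AT2G45300 gave 0.41 and 0.21. All of these values use the same untreated Col-0 arrays. Of all probe sets, 8.79% were called for atgsnor1-3 and 5.92% for sid2.

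AT1G48860 and AT2G45300 encode 5-enolpyruvylshikimate 3-phosphate synthase, late in the shikimate pathway, or are annotated as such, and share 1 probe set that cannot tell them apart. Its signal in Col-0 was 245 and 325 units untreated and 859 and 786 after avrB. The log2 difference was 1.54 ± 0.17 in Col-0 (limma adjusted p = 7.87e-06), 1.60 in sid2, 1.64 in atgsnor1-1 and 1.08 in atgsnor1-3. This last value was close to the size threshold, and without the first untreated array of atgsnor1-3 it was 0.94 and no longer called. AT5G66120, the 3-dehydroquinate synthase between these steps, gave log2 differences of 0.63, 0.69, 0.52 and 0.73 in Col-0, atgsnor1-1, atgsnor1-3 and sid2. All 4 had a limma adjusted p between 0.00177 and 0.0127, and all 4 were below the size for a call. How many of all probe sets had an adjusted p under 0.05 at any size is not reported here.

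**Figure D3:**
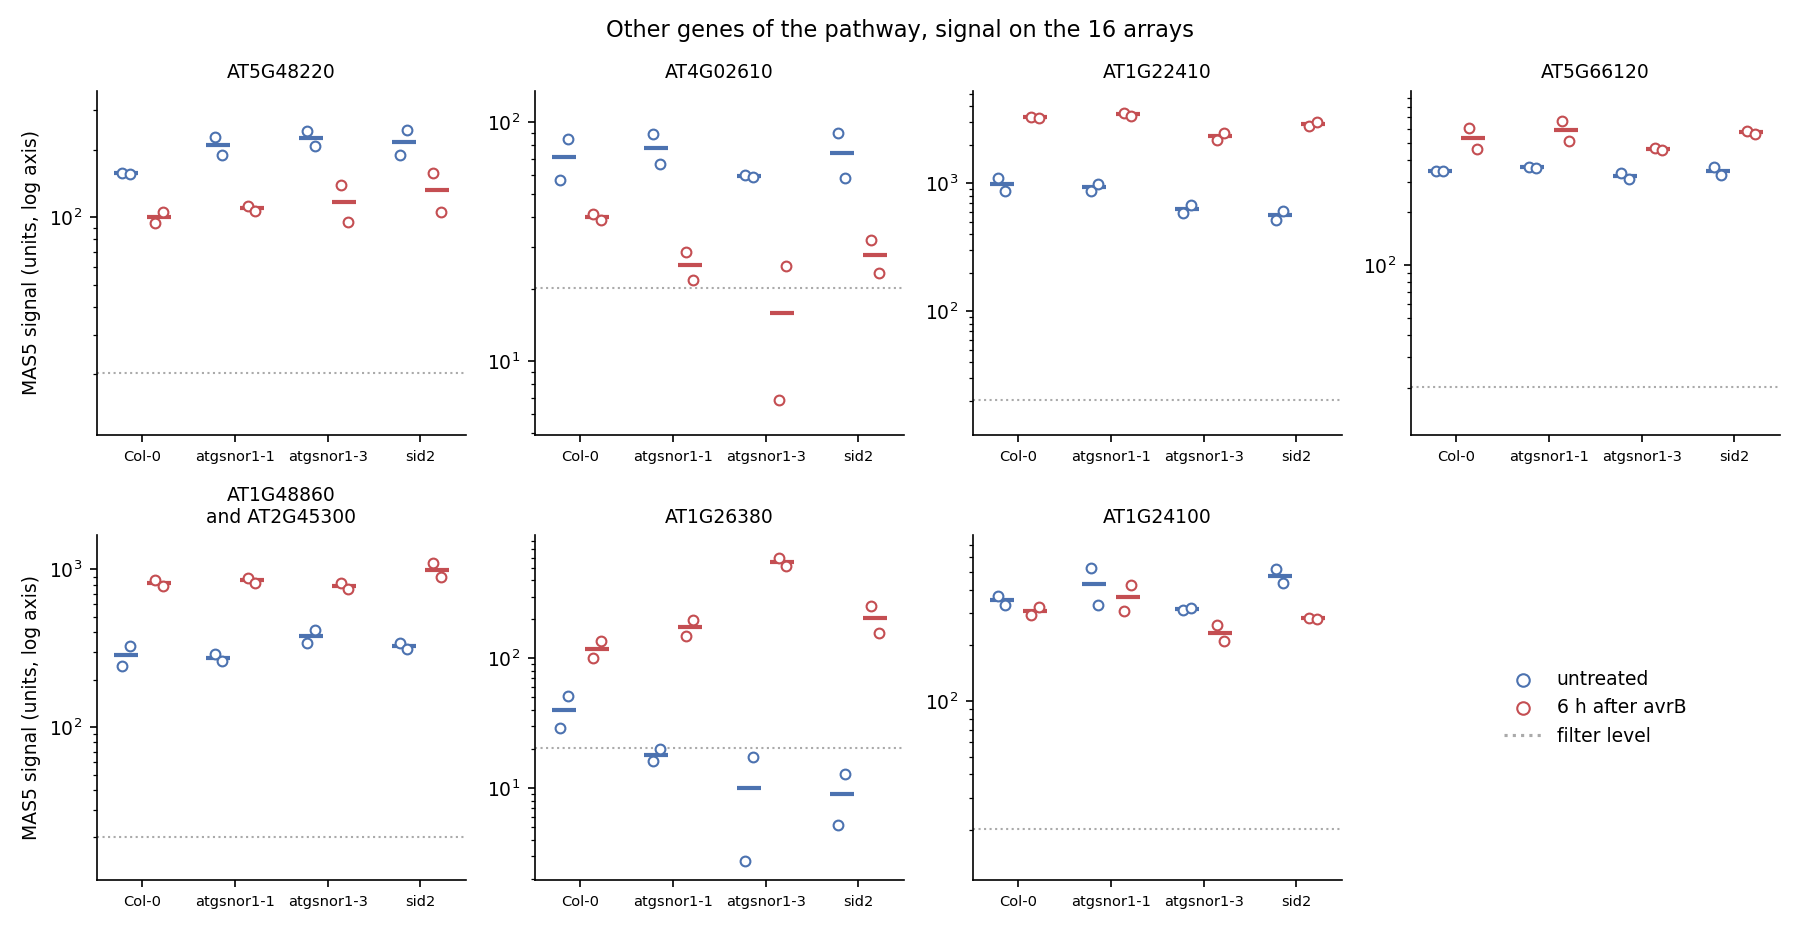
MAS5 signal (vertical axes, log scale, in units) of the 7 other pathway probe sets on the 16 arrays by genotype; circles are single arrays, bars the means of the 2 arrays, and the dotted line the level of 20.2 units below which a probe set's mean was filtered out. AT1G22410 and the shared probe set of AT1G48860 and AT2G45300 are higher on every treated array, while AT4G02610 and AT1G26380 reach below the dotted line in some groups.

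Of 9 loci for paralogs and remaining steps of the tryptophan chain, 2 could be read, and both had differences opposite in sign to those of AT2G04400. AT5G48220 is annotated as a second protein like indole-3-glycerol phosphate synthase. Its signal was 155 to 244 units on the untreated arrays and 94.3 to 157 after avrB, and within each genotype the states did not overlap. The log2 difference was -0.65 in Col-0, -0.92 in atgsnor1-1, -0.97 in atgsnor1-3 and -0.74 in sid2. All 4 had a limma adjusted p between 0.00162 and 0.0421, and none reached the size for a call. The share of all probe sets with an adjusted p under 0.05 at any size is not reported here. The 2 genes annotated to the same step therefore had differences of opposite sign after avrB, on the same arrays and in all 4 genotypes. Those of AT2G04400 were called and those of AT5G48220 were not.

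AT4G02610 encodes indole synthase, a cytosolic relative of the alpha subunit of tryptophan synthase that releases indole from indole-3-glycerol phosphate, the product of the AT2G04400 step. Its signal was low: 57.4 and 85.4 units in untreated Col-0 and 41.2 and 38.9 after avrB. In atgsnor1-3 it was 60.4 and 59.1 units untreated and 6.86 and 25.1 after avrB, so 1 of these treated arrays lay well under the filter level of 20.2 units. It fell in the mutants after avrB, with log2 differences of -1.62 in atgsnor1-1 (limma adjusted p = 0.0121), -2.19 in atgsnor1-3 (limma adjusted p = 0.00085; -3.12 to -1.25 with 1 array left out) and -1.41 in sid2 (limma adjusted p = 0.0241). In Col-0 the difference was -0.81 and was not called (limma adjusted p = 0.225). Tested directly, the response differed from that of Col-0 by -0.82 in atgsnor1-1, -1.38 in atgsnor1-3 and -0.60 in sid2. None of these contrasts was called (limma adjusted p = 0.665, 0.161 and 0.796), so a weaker fall in Col-0 is not shown. After avrB the signal of AT4G02610 was also lower in atgsnor1-3 than in Col-0, by a log2 difference of -1.61 (limma adjusted p = 0.0179). That last call was lost in 3 of the 4 runs with 1 array left out: without the first treated atgsnor1-3 array (-0.67), and without the first or the second treated Col-0 array (-1.57 and -1.65, limma adjusted p = 0.0864 and 0.0742). The calls in atgsnor1-1 and sid2 were each lost when 1 of 2 of their own arrays was left out, with adjusted p-values of 0.0817 to 0.179.

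**Figure D4:**
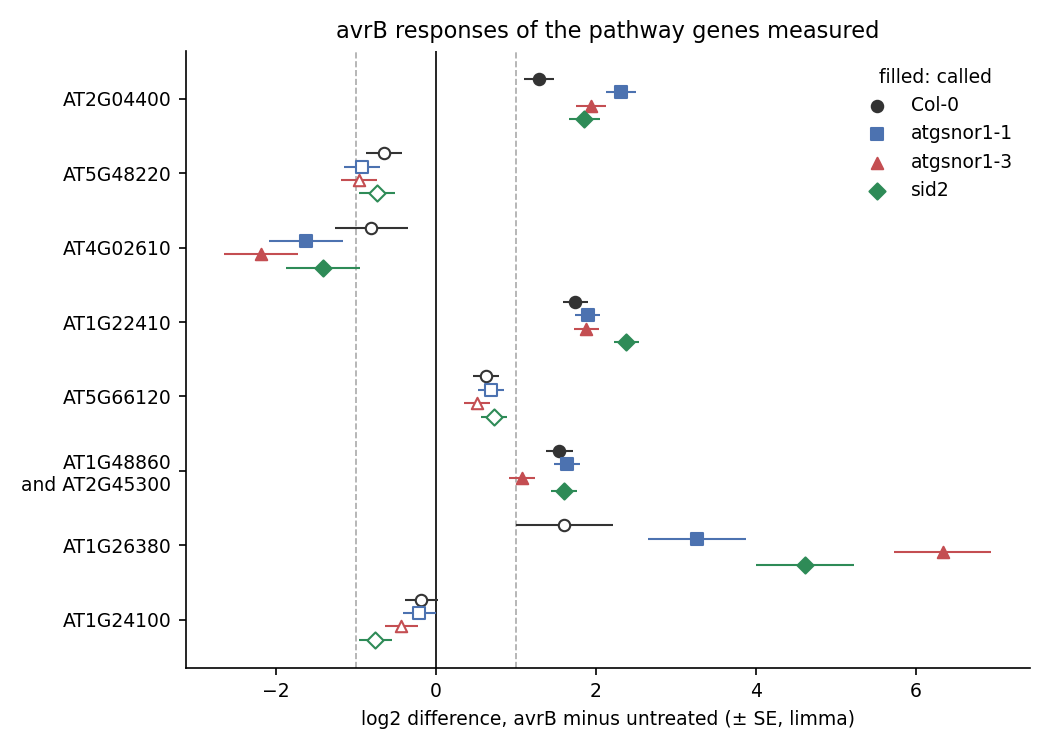
log2 difference between avrB and untreated leaves (horizontal axis, bars ± SE from limma) for AT2G04400 and the 7 other pathway probe sets in the 4 genotypes; filled symbols are called and open ones are not, and dashed lines mark a log2 difference of 1. AT2G04400, AT1G22410 and the probe set of AT1G48860 and AT2G45300 are filled in all 4 genotypes, and AT5G48220 and AT4G02610 lie to the left of 0.

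Downstream of tryptophan, 1 of 8 loci for camalexin and other products of indole-3-acetaldoxime could be read. This was AT1G26380 (FOX1), an oxidase that makes indole carbonyl nitriles, defence compounds that share the aldoxime with camalexin. In Col-0 its signal was 29.1 and 50.8 units untreated and 100 and 136 after avrB, a log2 difference of 1.61 ± 0.61 that was not called (limma adjusted p = 0.0669). In atgsnor1-1 it rose from 16.1 and 19.9 units to 150 and 198, a log2 difference of 3.27 (limma adjusted p = 0.000573). In atgsnor1-3 it rose from 2.72 and 17.3 units to 594 and 516, a log2 difference of 6.34 (limma adjusted p = 3.08e-07). In sid2 it rose from 5.2 and 12.7 units to 254 and 157, a log2 difference of 4.62 (limma adjusted p = 1.79e-05). Tested directly, the response differed from that of Col-0 by 1.66 in atgsnor1-1 and 3.01 in sid2. Neither contrast was called (limma adjusted p = 0.468 and 0.083). Only that of atgsnor1-3 was called, at 4.73 (limma adjusted p = 0.0012). All 6 untreated mutant arrays were below the filter level of 20.2 units, so the sizes of these differences rest on dim signals.

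Untreated AT1G26380 was called lower than in Col-0 in atgsnor1-3 (limma adjusted p = 0.01) and in sid2 (limma adjusted p = 0.0257). The fitted log2 differences, -2.49 and -2.24, compare dim signals with dimmer ones and are no measure of size: with a pseudocount of 9.48 units both were -1.42. The probe set passed the filter only through its treated arrays. After avrB it was higher in atgsnor1-3 than in Col-0, by 2.24 on the log2 scale (limma adjusted p = 0.0131), with arrays at 594 and 516 units against 136 or less. Each of these 3 calls was lost when 1 of certain arrays was left out. The first ended without the second untreated Col-0 array or the first untreated atgsnor1-3 array, at values of -2.09 and -1.15. The second ended without the second untreated Col-0 array or the first untreated sid2 array, at -1.84 and -1.60. The third ended without the first treated Col-0 array or either treated atgsnor1-3 array, at 2.02 to 2.34.

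Of 16 loci for indole glucosinolates, which are made from the same aldoxime, 1 could be read. AT1G24100 (UGT74B1), the glucosyltransferase of the glucosinolate core, was not called in any response. Its log2 differences were -0.18 in Col-0, -0.21 and -0.44 in the alleles atgsnor1-1 and atgsnor1-3, and -0.76 in sid2. Only the sid2 value had a limma adjusted p under 0.05, at 0.00818. Of 8 regulators of the pathway, WRKY33 and MYB51 among them, and of 5 loci for auxin made from tryptophan, 0 could be read, and they were not analysed here.

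The genes whose pattern over the 8 groups was closest to that of AT2G04400 were found by the root-mean-square distance between log2 group means, each gene centred on its own mean. Of 7331 other probe sets tied to 1 locus, AT5G61890 was closest, at a distance of 0.21, followed by AT5G63490 at 0.21 and AT5G24760 at 0.22. AT1G76390 (PUB43, a protein with a U-box) came next at 0.25, and AT1G22410, the entry enzyme of the shikimate pathway described above, had rank 5 at 0.25. The median distance over all 7331 was 1.07. AT5G66120 had rank 561, AT1G24100 rank 4493, AT1G26380 rank 5821, AT5G48220 rank 6031 and AT4G02610 rank 6971. These distances are descriptions over 8 means that share their arrays, and AT1G22410 was already on the list of pathway genes.

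**Figure D5:**
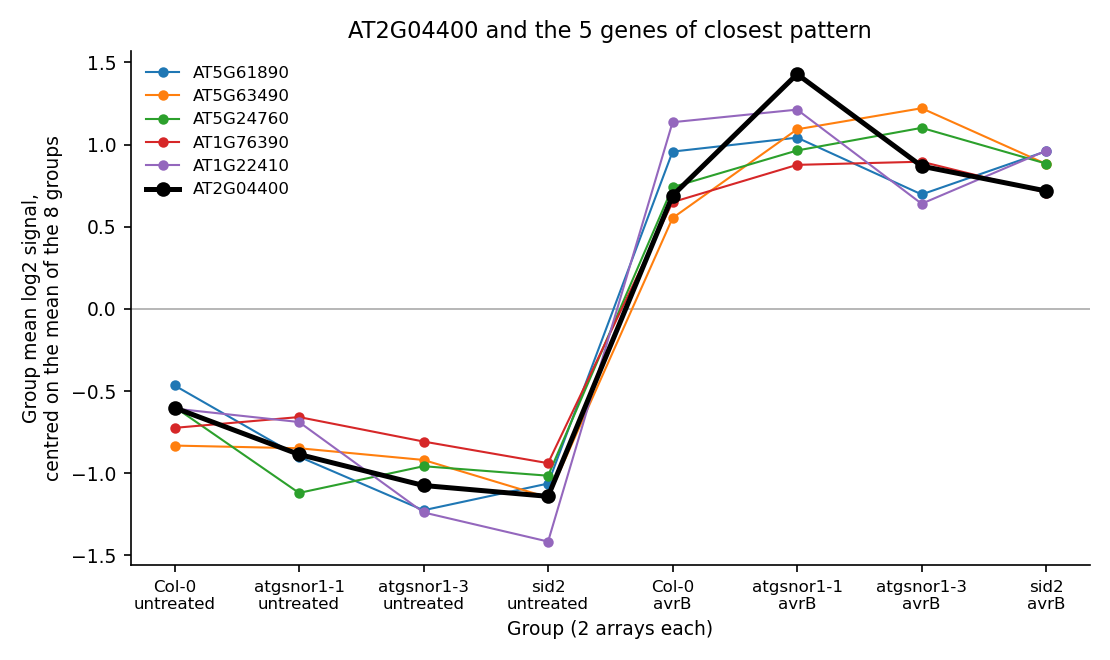
Group means of log2 signal, centred on each gene's mean over the 8 groups (vertical axis), for AT2G04400 (black) and the 5 genes of closest pattern, by group (2 arrays each). All 6 lines lie below 0 in the 4 untreated groups and above 0 in the 4 groups after avrB, and AT2G04400 is the highest of them in atgsnor1-1 after avrB. The 5 genes were picked for this closeness, so the shared shape follows from the choice.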

How the data were processed

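The authors made the deposited signals, linear intensity values of which each probe set has 1 per array, with MAS5 in GCOS, as the submitters' processing notes list; no source used here gives a version. Every array had the same mean after trimming 2% at each end, and this scaling was kept. It turns any change in total mRNA into a relative one. A Qiagen kit and biotin label were used, per the labels' protocols.

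The 16 arrays were grouped by genotype and treatment as labelled. One sid2 array after avrB carries both replicate numbers in its title and was taken as replicate 2. Of 22810 probe sets, 64 controls were set aside, and then the 40% of lowest mean log2 signal (under 20.2 units), which left 13648. Probe sets were named through the platform annotation and the RefSeq table of TAIR10.1 genes: 13513 carry 1 gene, of which 13436 matched a locus, 503 carry several and 8730 none. AT2G04400 passed the filter, and so did the 7 other pathway probe sets.

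Log2 signals without a pseudocount were fitted in R 4.3.3 with limma 3.58.1 as 8 group means over 16 arrays, using lmFit and eBayes with an intensity trend. Tests were two-sided, with Benjamini-Hochberg adjustment over all 13648 probe sets within each of 15 comparisons, and the fit was tested on simulated data. The 2 arrays per group limit the precision. The alternatives were no filter or a filter of 60%, quantile normalization, adding 9.48 units (percentile 25 of all signals) before the log, no trend, the replicate number as a block, fitting the compared groups alone, and leaving out each array in turn.

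All 10 listed loci were to be named, with up to 4 called genes of each pathway list and comparison, and the 5 genes of closest pattern; lower values of readable pathway genes are given beside them. The members and lists were chosen with earlier results of these data known. A planned search of promoters for the W-box core was not run, and patterns like those of ASA1, CYP79B2 and PAD3 were not analysed here.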

Additional observations from a re-analysis of the deposited data

Results flagged for a closer look

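The avrB response of AT1G26380 (FOX1, an oxidase of indole carbonyl nitrile synthesis) differed between atgsnor1-3 and Col-0 by 4.73 ± 0.86 (SE) on the log2 scale, by a test of the difference itself (95% interval 2.89 to 6.56, limma adjusted p = 0.0012). The responses were 6.34 in atgsnor1-3 and 1.61 in Col-0, and both atgsnor1-3 arrays were higher after avrB than untreated. This probe set had passed the filter only through its treated arrays. The 2 untreated atgsnor1-3 arrays read 2.72 and 17.3 units, both below the filter level of 20.2 units. The difference was called under every alternative that gave a value, but its size moved with these arrays: it was 3.39 without the first of them and 6.06 without the second, the ends of the range with 1 array left out. Over the other settings it was 3.57, with a pseudocount, to 4.98. With 2 arrays in each group, no array could be tested for standing apart from its group.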

How the results depend on the processing

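AT2G04400 was called higher in all 4 avrB responses, and in no other comparison, under every alternative run. With 1 array left out its log2 response ranged from 1.19 to 1.39 in Col-0, 2.12 to 2.51 in atgsnor1-1, 1.66 to 2.22 in atgsnor1-3 and 1.75 to 1.96 in sid2. Of its uncalled differences, 2 changed sign when an array was left out: sid2 against Col-0 after avrB (from -0.0788 to 0.135, with -0.0174 without the first treated Col-0 array) and untreated atgsnor1-3 against atgsnor1-1 (from -0.471 to 0.0942, with 0.0066 without the first untreated atgsnor1-1 array). The adjusted p of its difference in response between atgsnor1-1 and Col-0 ranged from 0.0678 to 0.252 over the other settings, and that of their difference after avrB from 0.043 to 0.279. The uncalled response of AT1G24100 in atgsnor1-1 ranged from -0.54 to 0.12. Of the pathway genes, AT5G48220 was called lower in atgsnor1-3 with quantile normalization (-1.05), and in atgsnor1-1, atgsnor1-3 and sid2 when certain single arrays were left out (-1.24 to -1.02). The response of AT1G26380 in Col-0 was called with a pseudocount (1.39) and with only the compared groups (limma adjusted p = 0.00542), and its lower untreated levels lost their calls with only the compared groups (0.158 in atgsnor1-3 and 0.0636 in sid2, limma adjusted p) and, in sid2, without the trend (0.071). AT4G02610 and AT1G26380 fall below the 60% filter and have no value there. The cause of these changes was not tested.

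The count of all probe sets called moved by over 1.5 times in 6 comparisons: from 20 to between 6 and 83 for untreated atgsnor1-1 against Col-0, from 1199 to 782 for untreated atgsnor1-3, from 22 to between 5 and 113 for atgsnor1-1 against Col-0 after avrB, and from 205 to between 94 and 374 for sid2. For the differences in response, it moved from 74 to between 1 and 201 for atgsnor1-1 and from 355 to between 203 and 463 for sid2.

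Arrays of equal replicate number showed little shared deviation: over 28 pairs of groups, the correlation of deviations ran from -0.15 to 0.10. These correlations cannot tell whether such arrays were paired in the design. With the replicate block, the log2 response of AT2G04400 in Col-0 was 1.29 and no call of it changed, AT1G26380 in Col-0 was called (limma adjusted p = 0.0421), and the count for atgsnor1-1 against Col-0 after avrB was 11 in place of 22.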

Other observations

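Readable genes next to the tryptophan chain were read from 2 more lists, chosen after the annotation but before their values were seen. Arogenate dehydrogenase makes tyrosine from the arogenate branch of the same shikimate pathway, and both its loci could be read. AT5G34930 rose after avrB in Col-0, by 1.21 on the log2 scale (limma adjusted p = 0.0148), in atgsnor1-3 by 1.61 (limma adjusted p = 0.00076) and in sid2 by 1.37 (limma adjusted p = 0.00404). In atgsnor1-1 its log2 difference was 0.21 (limma adjusted p = 0.688). Its treated arrays read 42.9 and 85.4 units in atgsnor1-1 and 139 and 171 in atgsnor1-3, and the alleles differed after avrB by 1.35 (limma adjusted p = 0.00696). Without the first treated atgsnor1-1 array that difference was 0.86, and without the second treated atgsnor1-3 array 1.20, neither of them called. The call in Col-0 was lost without the first untreated or the second treated Col-0 array, at 0.86 and 0.91. The second locus, AT1G15710, was not called in any response, with log2 differences of -0.73, -0.31, -0.85 and -0.64 in Col-0, atgsnor1-1, atgsnor1-3 and sid2.

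Phosphoribosyl diphosphate synthetase supplies the sugar phosphate that anthranilate phosphoribosyltransferase joins to anthranilate. Of 5 loci, 3 could be read, and AT2G35390, AT2G42910 and AT2G44530 were not called in any comparison. In Col-0 their log2 differences after avrB were -0.27, -0.36 and -0.06, on arrays where AT2G04400 was higher by 1.29. In atgsnor1-3 they were 0.85, -0.04 and 0.72, and the last, of AT2G44530, had a limma adjusted p of 0.00437 but not the size for a call. The value of 0.85, of AT2G35390, had an SE of 0.84 and a limma adjusted p of 0.418. Its untreated atgsnor1-3 arrays read 151 and 7.29 units, against 73.1 and 49.2 after avrB, so its sign is uncertain. In atgsnor1-1 and sid2 the differences of the 3 loci lay between -0.44 and 0.24.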
